A study of Mus musculus with 4 samples.

Results

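The genes described here are the 10 members of the AP-1 and BATF group of transcription factors: Jun, Junb and Jund of the JUN family, Fos, Fosb, Fosl1 and Fosl2 of the FOS family, and Batf, Batf2 and Batf3 of the BATF family. The rule that picks them uses symbols only, though it was set with earlier results of these data known, and all 10 were found among the 50600 genes of the deposited count tables. RNA sequencing was done on 4 libraries of mouse T helper 17 (Th17) cells, CD4 T cells that secrete IL-17. All 4 libraries share strain C57BL/6NJ, carry 1 common donor label and are numbered as biological replicates 1 to 4, with neither sex nor age recorded. The labels call the material primary cells and link a protocol for differentiating CD4 T cells. The agents used and the number of animals are not stated there. The output name in the file headers holds 48 hours, a time that the labels do not repeat. There is 1 group and no contrast. The questions are therefore how high each gene stood, how the genes compared within a library, and how far the libraries differed.

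AP-1 is not a single protein but a dimer. Its subunits carry a basic region that grips DNA and a leucine zipper that holds the dimer together. JUN proteins can pair with each other or with FOS proteins, whereas FOS proteins need a JUN partner. BATF proteins lack the activation domain of FOS, pair mainly with JUN proteins, and in T cells bind composite sites together with IRF4 or IRF8. BATF is required for Th17 differentiation in mice, and FOS and EGR1 are classic immediate early products, made within minutes of a stimulus and soon lost.

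The DNA-contacting part of these genes is given as 6 coding stretches, from the highest and the lowest member by RNA level in each family. Each stretch was located by the pattern NxxAAxxxR (asparagine, paired alanines, arginine, x any residue) in the translated coding sequence. Codons for these residues therefore match in part by construction, and the shared bases are a description only. Capitals mark the 9 codons from the conserved asparagine codon of the basic region to its conserved arginine codon, 27 bases, read 5′ to 3′ on the coding strand from the principal transcripts of GENCODE M21 (mm10).
Junb, minus strand, chr8:84977572-84977616: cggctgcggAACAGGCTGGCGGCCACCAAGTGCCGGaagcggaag
Jun, minus strand, chr4:95050444-95050488: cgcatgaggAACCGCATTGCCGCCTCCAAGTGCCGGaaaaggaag
Fosl2, plus strand, chr5:32150457-32150501: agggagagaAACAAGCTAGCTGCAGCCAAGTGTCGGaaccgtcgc
Fosb, minus strand, chr7:19306586-19306630: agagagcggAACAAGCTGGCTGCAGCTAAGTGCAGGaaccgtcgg
Batf, plus strand, chr12:85689301-85689345: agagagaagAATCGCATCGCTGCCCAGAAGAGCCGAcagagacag
Batf2, plus strand, chr19:6166501-6166545: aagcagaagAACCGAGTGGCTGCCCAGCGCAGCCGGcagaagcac

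Each of these stretches lies within 1 exon. Junb and Jun shared 21 of the 27 capital bases, Fosl2 and Fosb 23, and Batf and Batf2 19. Over the 12 pairs within a family the shared bases ranged from 19 to 24 with a median of 21, and over the 33 pairs between families from 11 to 21 with a median of 16. The closest pair, Jun and Jund, shared 24 of 27, and its longest identical coding run was 20 bases, the longest of all 45 pairs. No 50-base window of any member's transcripts occurred in another member. The same windows did recur in genes on the opposite strand: the Jun antisense gene Junos held 5.83% of those of Jun, Prdx2 5.76% of those of Junb, Gm11175 48.3% of those of Jund, Arl2 0.111% of those of Batf2 and, in the M21 models, Ccdc85b 52.6% of those of Fosl1. Fragments were counted by strand, which assigns such pairs separately, and how many fragments were read on the wrong strand was not measured.

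As to the libraries, totals ran from 28555677 to 58104663 counted fragments. The T helper markers Cd3e, Cd3g, Cd4, Trac and Lck were all at 1 TPM or more in every library, and so were all 6 Th17 markers, with Il17a at 4436 ± 179 TPM (SD, n = 4). TPM divides each count by the gene's exon length and sets all libraries to one total, so genes of unequal length can be compared. Xist, the X-linked silencing RNA, was at 131 to 132 TPM in replicates 1 and 2 and at 0.329 to 0.496 in the other libraries. Y-linked Eif2s3y went the other way, so the libraries fall into pairs that the labels do not name. Nothing in the labels ties a replicate to an animal or culture of its own. The p-values therefore refer to these libraries only, and part of the spread between them may be technical. The values of Xist and Eif2s3y do show that replicates 1 and 2 hold cells of another sex than replicates 3 and 4. Counts differed less within these pairs (chi-square per degree of freedom 4.06 and 5.72) than between them (8.22 to 10.7). That measure included Xist and the Y-linked genes, which define the pairs, so it is no separate evidence of them. How much of the gap these genes make up was not measured. The SDs and tests given here treat the 4 libraries as exchangeable.

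The JUN and BATF sides were led by Junb and Batf, and the FOS side had the lowest summed TPM. Without length scaling, the FOS sum stood above that of BATF. Of the 10 members, 8 were at 1 TPM or more in every library, against 47% of all 21764 protein-coding genes. The median of their mean levels was 37.7 TPM, while the 10223 protein-coding genes that passed this level had a median of 31.3 TPM and all protein-coding genes one of 0.575. The members ranged from 1054 TPM for Junb to 2 fragments in all for Batf2. In bulk RNA, fewer cells that make a transcript and less of it per cell cannot be told apart.

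**Figure D1:**
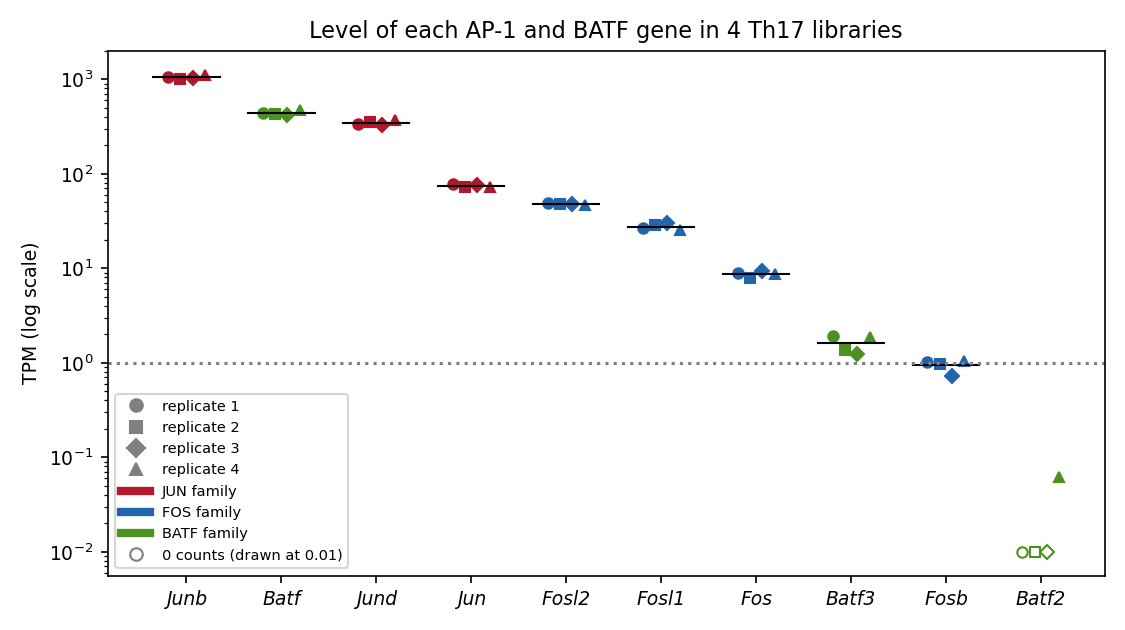
TPM (log scale) of each gene in replicates 1 to 4 (symbols), coloured by family, with the mean as a bar (none for Batf2). The dotted line marks 1 TPM, and open symbols are libraries with 0 counts. Junb lies near 1054 TPM, Fosl2 leads the FOS family near 47.8 TPM, and Fosb straddles the line.

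Junb encodes the JUN protein that commonly pairs with BATF in Th17 cells. It stood at 1062, 999, 1033 and 1121 TPM in replicates 1 to 4, or 1054 ± 51.9 (SD, n = 4), and ranked 102 among the protein-coding genes. Replicate 4 was the highest and replicate 2 the lowest, and all 4 values exceeded those of every other member. On chromosome 8, Junb (ENSMUSG00000052837.6) occupies bases 84974484 to 84978718, minus strand. Jund, a JUN protein made broadly in resting and growing cells, lies on the same chromosome from 70698949 to 70700616 as a gene of 1 exon. Its levels were 339, 349, 326 and 375 TPM, with replicate 4 again the highest.

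Jund needs a caveat of position. The antisense gene Gm11175 covers 52.6% of its exon bases and had 5, 7, 15 and 69 counts in replicates 1 to 4, against 4827, 6451, 9500 and 8084 for Jund. Its own high count therefore fell in the library in which Jund was highest, and its part in the level of Jund was not tested. In RefSeq, the start of Jund lies 1210 bases upstream of that in the deposited gene model, whose length of 1668 bases sets the TPM used here.

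Jun, the founding member and a target of the JNK kinases, was far below both. It stood at 78.2, 71.6, 76.6 and 73.2 TPM. The 4 libraries kept within a factor of 1.09. Jun is also a gene of 1 exon (ENSMUSG00000052684.4, chromosome 4, 95049034 to 95052222). Within the JUN family, Junb made up 71.4% ± 0.725 of the summed TPM, Jund 23.5% ± 0.88 and Jun 5.08% ± 0.306 (SD, n = 4). These shares hardly moved between libraries, that of Junb lying between 70.4% and 72%.

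Among the BATF genes, nearly all RNA was Batf. Batf stood at 443, 432, 414 and 468.5 TPM, a mean of 439.5 ± 22.7 (SD, n = 4), with replicate 4 the highest and replicate 3 the lowest. Only 1.53% of protein-coding genes stood higher. Batf3, which pairs with JUN proteins and is needed by cross-presenting dendritic cells, was at 1.91, 1.36, 1.25 and 1.89 TPM from 26, 24, 35 and 39 fragments. It thus stayed above 1 TPM in all libraries but on few fragments.

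Batf2, an interferon-inducible relative known from macrophages and dendritic cells, had 0, 0, 0 and 2 fragments. A count of 0 allows up to 3 fragments, a level of 0.139, 0.107 and 0.068 TPM in replicates 1 to 3, so Batf2 was not detectable beyond that. With counts pooled over libraries and divided by length, Batf exceeded Batf2 by 27586 (exact Poisson 95% interval 7636 to 227803) and Batf3 exceeded it by 97.9 (26.5 to 817), intervals that cover counting error only. Batf made up 99.6% ± 0.0664 of the summed TPM of its family.

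Markers of cells that use Batf3 and Batf2 in other settings stood low here or were at 0. Of the 6 dendritic cell markers, only H2-Ab1 reached 1 TPM in every library (1.45 ± 0.0611, SD, n = 4). Clec9a was at 0 in all 4 libraries, Xcr1 at 0.0808 ± 0.062 TPM, and the summed level of the list ranged from 2.1 to 2.73 TPM. Of the 5 macrophage and monocyte markers none reached 1 TPM in every library, Lyz2 and Fcgr1 were at 0 throughout, and the sum ranged from 0.986 to 1.28 TPM. Batf3 itself was at 1.6 ± 0.345 TPM (SD, n = 4), below the dendritic cell sum. The part of such cells in the level of Batf3 was not tested.

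The FOS family was carried by the FOS-related antigens. Fosl2, which encodes FRA2, stood at 49.4, 47.5, 47.4 and 47.1 TPM, or 47.8 ± 1.06 (SD, n = 4), the steadiest of the members. Replicate 1 lay apart from the other libraries, though only by a few percent. Fosl1, which encodes FRA1, was at 26.6, 28.5, 30.2 and 25.2 TPM. Here replicate 3 was the highest and replicate 4 the lowest, the reverse of Batf and Jund.

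Fos itself, the immediate early gene, was at 8.82, 7.83, 9.31 and 8.77 TPM, or 8.68 ± 0.619 (SD, n = 4). That is a detectable but low level, from 177 to 383 fragments. Fosb, its close relative, was at 1.03, 0.969, 0.724 and 1.04 TPM, on either side of the level of 1 TPM. Fosl2 made up 56.3% ± 1.6 of the summed TPM of the family, Fosl1 32.4% ± 1.89, Fos 10.2% ± 0.673 and Fosb 1.11% ± 0.195. These shares depend on gene length. Without length scaling, Fosl2 made up 86.3% ± 0.604 of the family, Fosl1 8.78% ± 0.699, Fos 3.81% ± 0.266 and Fosb 1.1% ± 0.174. The 2 FOS-related antigens thus led the family in every library, and the ranges of Fosl2, Fosl1, Fos and Fosb did not overlap.

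Fos and Batf are neighbours on chromosome 12, both on the plus strand. Fos spans 85473890 to 85477273, Batf spans 85686669 to 85709087, and the gap between them is 209 kb. A single protein-coding gene lies in that gap, Jdp2, which encodes a bZIP repressor that pairs with JUN proteins. Jdp2 was at 0.997, 1.44, 1.12 and 1.11 TPM. Along this stretch the level therefore went from 8.68 TPM at Fos to 1.17 at Jdp2 and 439.5 at Batf.

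Seen as families, JUN transcripts outnumbered both sets of possible partners. The summed TPM of Jun, Junb and Jund was 1479, 1420, 1435 and 1569 in replicates 1 to 4. The sum for Batf, Batf2 and Batf3 was 445, 434, 415 and 470.4, and that for the FOS genes 85.8, 84.8, 87.6 and 82.1. The JUN and BATF sums were highest in replicate 4, where the FOS sum was lowest. None of these ranges overlapped.

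Within each library, log2((TPM + 0.1)/(TPM + 0.1)) of the sums was taken. JUN stood above FOS by 4.11 ± 0.1 (SD, n = 4), a 17.3-fold difference, and above BATF by 1.74 ± 0.03, a 3.35-fold difference. BATF stood above FOS by 2.37 ± 0.11, or 5.18-fold. All 3 kept their direction in 4 of 4 libraries. The exact two-sided sign-flip permutation test gave 0.125 for each, also after Benjamini-Hochberg adjustment over the 3. This is the smallest p that 4 libraries allow and is above 0.05. The test takes that value whenever all libraries agree in direction, whatever their spread. Without length scaling, in CPM (counts scaled to the library total), BATF fell below FOS with a log2 ratio of -0.35. The gene model of Fosl2 is 9680 bases long and that of Batf 955. JUN stayed above both, 6.04-fold over FOS and 7.67-fold over BATF.

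**Figure D2:**
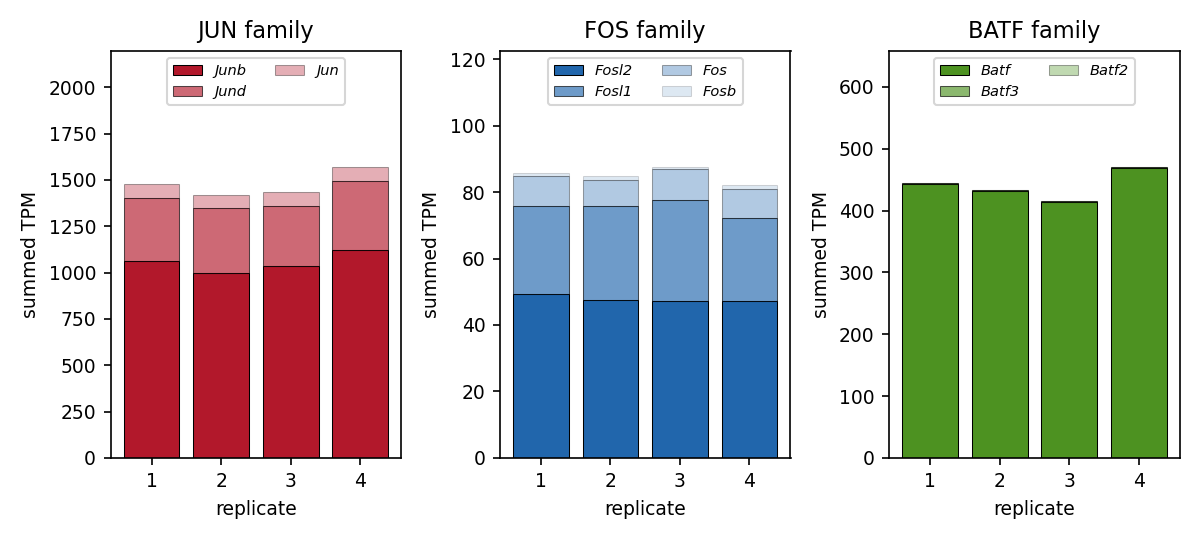
Summed TPM in replicates 1 to 4 for the JUN, FOS and BATF families, each bar divided by gene. The vertical scales differ between families. Junb fills 71.4% of the JUN bars on average, Fosl2 and Fosl1 together lead the FOS bars, and Batf fills 99.6% of the BATF bars.

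The order of the members by mean TPM was Junb, Batf, Jund, Jun, Fosl2, Fosl1, Fos, Batf3, Fosb and Batf2. In none of the 9 neighbouring pairs did the ranges of TPM overlap, and each pair had the same direction in 4 of 4 libraries. The exact two-sided sign-flip permutation test gave 0.125 for every pair, with an adjusted value over the 9 of 0.125. None can therefore be called at 0.05 with 4 libraries. The order was taken from the same values, so the test is no separate support for it. The closest pair was Batf over Jund, with a log2 ratio of 0.34 ± 0.03 (SD, n = 4), followed by Jun over Fosl2 with 0.65 ± 0.04 and Batf3 over Fosb with 0.7 ± 0.17. Among the wider ones were Jund over Jun with 2.21 ± 0.13 and Fos over Batf3 with 2.39 ± 0.31. Batf and Jund kept nearly the same ratio in every library, from 0.31 to 0.39, although each of them was higher in replicate 4 than in replicate 3.

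Some steps of this order rest on gene length. In CPM, Jund stood above Batf (log2 ratio of Batf over Jund -0.46), Fosl2 above Jun (Jun over Fosl2 -0.95) and Fosb above Batf3 (Batf3 over Fosb -1.11). The deposited gene models merge all annotated exons, which makes some genes longer than their main transcript: 6243 bases against 3782 for Fosb, 9680 against 6537 for Fosl2 and 1597 against 801 for Batf3. The TPM of each member was also rescaled to the length of its principal transcript, chosen after the data were seen. Junb was then at 1340.4, Fosl2 at 70.8, Batf3 at 3.19 and Fosb at 1.55. All other genes kept their lengths and the totals were not reset, so these values compare members only. All 9 neighbours kept their direction on that scale.

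**Figure D3:**
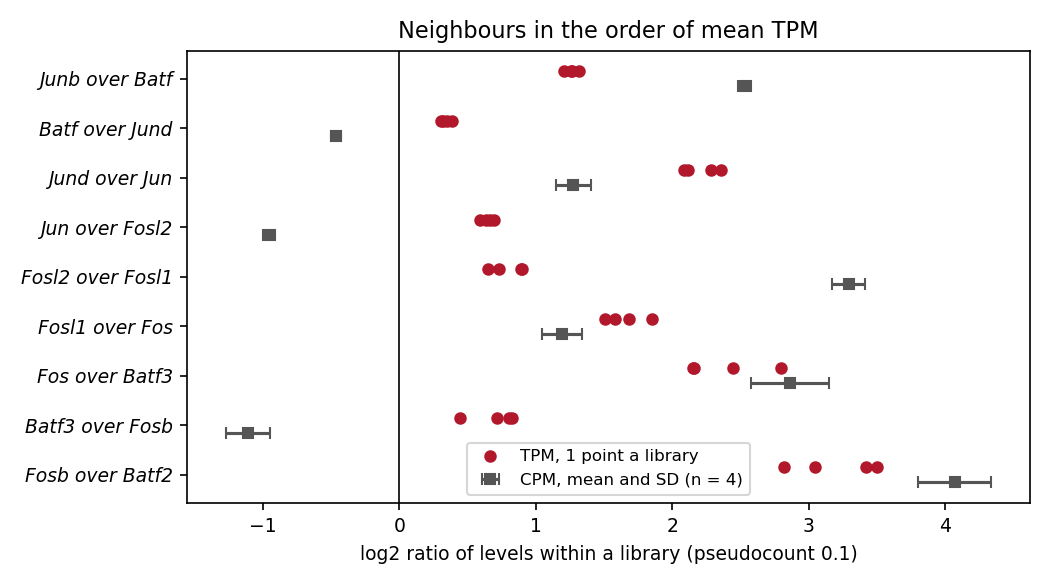
log2 ratio within a library for the 9 neighbouring pairs in the order of mean TPM, 1 red point per library, with the mean and SD of the same ratio in CPM as grey squares. All red points lie above 0, whereas the grey squares of Batf over Jund, Jun over Fosl2 and Batf3 over Fosb lie below 0.

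No member was called different between the libraries, but few genes of any kind were, so this does not set the members apart. Of the 10 members, 9 passed edgeR's filter on low counts, all but Batf2. By the negative binomial deviance at edgeR's trended dispersion, 0 of 9 passed a Benjamini-Hochberg adjusted p of 0.05 and 0 had an unadjusted p under 0.05, against 0.523% of 12434 genes called. The lowest unadjusted values were 0.0841 for Batf and 0.112 for Jund in this fit across all genes, and the adjusted value was 0.99997 for each member. The looser Poisson deviance with a 2-fold ratio of the highest to the lowest library also called 0 of 9, against 1.74% of genes.

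When only counting noise was allowed for and no ratio asked, the Poisson deviance passed 5 of 9 members, against 36.6% of genes. They were Batf, Jun, Junb, Jund and Fosl1, whose highest library exceeded the lowest by 1.13-fold, 1.08-fold, 1.13-fold, 1.15-fold and 1.2-fold in CPM. Fos, Fosb, Fosl2 and Batf3 did not pass it. This test picks up small differences more readily in genes with more fragments, and the share of all genes was not matched for that. Members that passed had from 2382 (Fosl1) to 121272 (Junb) fragments in all, and Fosl2 had 23088. As a description of size, the coefficient of variation of TPM was 5.16% for Batf and 5.94% for Jund, where the 394 genes between 256 and 512 TPM had a median of 2.66% and a 90th percentile of 4.94%. That of Fosl2 was 2.21%, against a median of 3.61% for genes between 32 and 64 TPM.

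**Figure D4:**
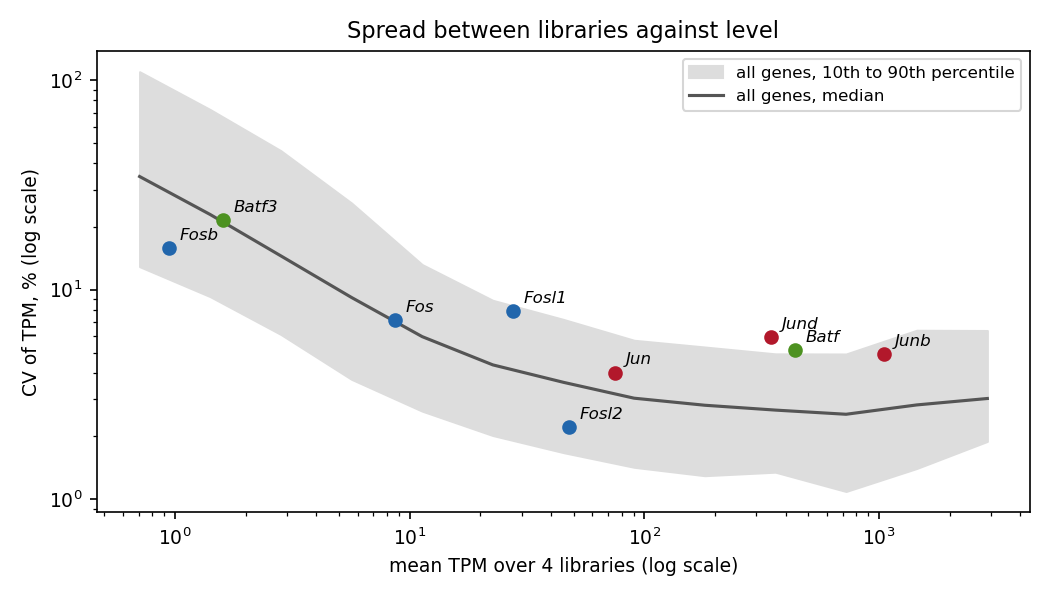
Coefficient of variation of TPM over the 4 libraries (%, log scale) against mean TPM (log scale). The line is the median of all genes at that level and the band their 10th to 90th percentile; points are members, coloured by family (red JUN, blue FOS, green BATF). Batf (5.16%) and Jund (5.94%) lie above the band's edge of 4.94% and Fosl2 (2.21%) below the median line. Batf2 is left out.

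The genes whose levels were most like those of a member were found by the root mean square difference in log2(TPM + 0.1) over the 4 libraries. For Batf they were Myc (0.0303), Acot7 (0.0454) and Hnrnpa0 (0.0507). For Junb they included Prelid1 (0.0592) and Aldoa (0.0616), and for Fosl2 they were Tmco1 (0.01), Pdcd10 (0.0155) and Kbtbd2 (0.017). This measure mostly reads the level itself, since the libraries differed little.

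The listed factors that bind beside AP-1 were all present. All 6 of these partners of BATF and JUN were at 1 TPM or more in every library, with a median of 133 TPM. Of all protein-coding genes 47% reached that level, a share that also stands beside the lists below. The lists were chosen with earlier results of these data known, so such counts do not set their genes apart. Irf4, which binds composite sites with BATF, led at 813 ± 20.2 TPM (SD, n = 4), below Junb and above Batf. Irf8, which can replace it at such sites, was at 73.6 ± 6.57. Stat3, the signal transducer of IL-6 and IL-23, was at 211 ± 6.95, Maf, a bZIP factor of Il10 expression, at 139 ± 7.47, Ets1 at 127 ± 3.41 and Runx1 at 27.1 ± 1.3.

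Other bZIP factors that pair with JUN or FOS proteins, or compete for their sites, numbered 15 of 16 at 1 TPM or more in every library, with a median of 22.9 TPM. Atf4, the factor of the integrated stress response, led at 668 ± 31.1 TPM (SD, n = 4). Bach2, a repressor that competes with AP-1 at its sites in T cells, followed at 184 ± 6.22, and Atf1 at 107 ± 1.91. Jdp2 was the lowest. In mean TPM, Bach2 thus stood above Jun and all FOS genes and below Jund, Batf and Junb.

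The kinases that feed into AP-1 were mostly measured well, at 13 of 14 in every library and a median of 54.6 TPM. Map2k3, an activator of p38, led at 265 ± 16.3 TPM (SD, n = 4) and Map2k1, an activator of ERK, was at 113 ± 4.19. Mapk10, the JNK of neurons, had 1, 0, 1 and 1 fragments. The other JNK genes, Mapk8 and Mapk9, were at 16.5 ± 0.671 and 32.3 ± 1.67.

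Other immediate early genes were higher than Fos in most cases. All 12 were at 1 TPM or more in every library, with a median of 69.3 TPM, and 11 of them were above the mean of Fos. Myc was at 434 ± 14.6 TPM (SD, n = 4), Ier2 at 386 ± 17.7 and Nr4a1 at 176 ± 13.5. Atf3, a stress-induced bZIP factor that pairs with JUN proteins, was the lowest at 5.9 ± 0.421. Fos and Fosb thus lay at the low end of the genes usually induced with them, Junb at the high end.

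**Figure D5:**
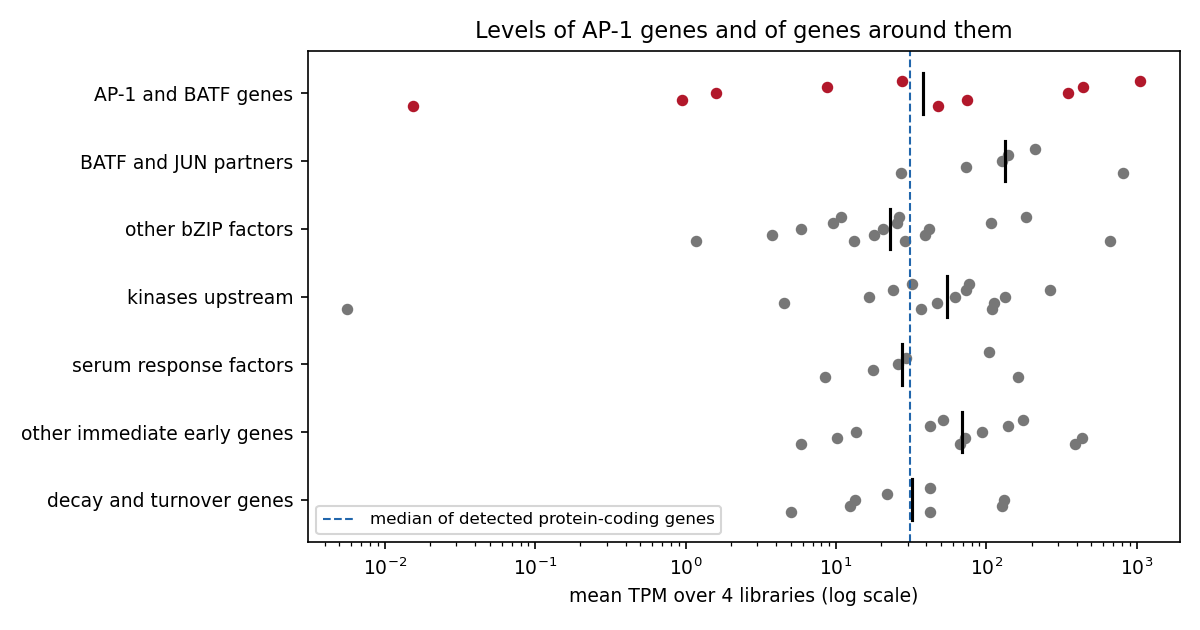
Mean TPM over 4 libraries (log scale) of the 10 members (red) and of the genes of 6 fixed lists (grey), 1 point per gene, with each list's median as a black bar. The dashed line is the median of protein-coding genes that reach 1 TPM in all 4 libraries, 31.3 TPM. The list of partners has its median at 133 TPM and that of other bZIP factors at 22.9 TPM. Vertical offsets within a row carry no meaning.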

How the data were processed

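Fragment counts per gene are the authors' deposited values: per the file headers, featureCounts 1.4.6-p4 counted paired reads with both ends mapped, by strand (option 2), on GENCODE M13 exons, and neither multi-mapping fragments nor those overlapping 2 genes on a strand were counted. The labels name mm10, aligner not given in the sources used here. By assay label this is total RNA-seq, but the name of the linked library protocol says poly(A). Symbols came from GENCODE M21 by gene ID (50376 of 50600 matched).

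TPM was computed from the deposited counts and exon lengths, with a pseudocount of 0.1 for ratios and exact sign-flip tests over libraries. Variation was tested with edgeR 4.0.16 in R 4.3.3 (TMM, factors 0.997 to 1.01, default filter) on 12434 genes and checked on simulated data; DESeq2 1.42.0 was an alternative. A total of 28555677 to 58104663 counts puts the limit of a 0 count at 0.105 to 0.0516 CPM. All 10 members, the 3 nearest genes to Batf, Junb and Fosl2, and in each list the highest 3 and the lowest gene (all, for lists of 6 or fewer) are named by rule, except a few items not reported here; Mapk8, Mapk9, Xist, Eif2s3y and the antisense genes were picked after their values were seen. The members and lists were chosen with earlier results of these data known. Promoters are those of RefSeq (GRCm38.p6). Protein sequences were not used here, beyond translating coding sequences to locate the basic region. Libraries were not treated as duplicates, since counts of each pair differed beyond sampling noise (chi-square per degree of freedom 4.06 between replicates 1 and 2, 5.72 between 3 and 4, and 8.22 to 10.7 for the other pairs).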

Additional observations from a re-analysis of the deposited data

Results flagged for a closer look

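Fosl2 in replicate 1, at 49.4 TPM, lay apart from the other 3 libraries, which ran from 47.1 to 47.5 TPM. Its gap to the nearest library was 0.843 of the whole range, above Dixon's 95% critical value for 4 samples. Of 20 such checks on members and ratios this was the only one past that value, and chance flags about 1 in 20.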

How the results depend on the processing

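The 9 neighbouring pairs and 3 family ratios kept their direction with a pseudocount of 1 and with each replicate left out. They also kept it with the principal transcript's length (added after the data were seen), though Jun over Fosl2 fell to 0.08. The 9 pairs kept it with a pseudocount of 0.01 as well. In CPM, 4 of the 12 turned: Batf over Jund to -0.46, Jun over Fosl2 to -0.95, Batf3 over Fosb to -1.11 and BATF over FOS to -0.35, since CPM leaves out gene length. Members that reach 1 TPM in all libraries were 8, with 7 at 5 TPM, 9 at 0.5 TPM and 8 in CPM or without any 1 replicate. The share of all protein-coding genes is given for 1 TPM only, so the other counts have no background beside them. No member was called variable at the trended dispersion (also with each replicate left out, no filter or DESeq2 size factors), at the common or DESeq2's fitted dispersion, or by the Poisson deviance with a 2-fold ratio; the Poisson deviance with no ratio asked, added after the data were seen, called 5 of 9 members and 4550 of all genes. All genes called went from 65 to 216 (Poisson, 2-fold), 123 (common dispersion), 113 (no filter), and 32 to 49 with 1 replicate left out (35 without replicate 1 and 32 without replicate 4); the cause was not tested. DESeq2 size factors called 65 and its fitted dispersion 69. No paired analysis was possible because the libraries form 1 group. Depth limits Batf2 and leaves Batf3 and Fosb on few fragments.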

Other observations

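Genes that act on Fos transcription and on the life of AP-1 products were present as well. All 6 serum response genes were at 1 TPM or more in every library, with a median of 27.4 TPM: Elk3 at 163 ± 4.68 TPM (SD, n = 4), Srf at 104 ± 2.57, Elk4 at 29.1 ± 1.73, Mrtfa at 25.8 ± 2.49, Elk1 at 17.6 ± 0.561 and Mrtfb at 8.45 ± 0.422. Of all protein-coding genes, 47% were at that level. Of the genes that shorten the life of AP-1 mRNA or protein, 8 of 8 were, with a median of 32.1 TPM. They were led by the mRNA decay factors Zfp36l1 (132 ± 3.39) and Zfp36l2 (126 ± 2.75) and by the ubiquitin ligase Itch (42.4 ± 0.817), which acts on JUN proteins, with the ligase Cop1 the lowest (5.01 ± 0.229).

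RefSeq promoters (GRCm38.p6, 250 bases before to 50 after the start) were given for 8 members and searched on both strands. None held TGANTCA, TGACGTCA or a CArG box, against 7.81%, 1.79% and 1.63% of all 32851 promoters of that length. This says only that these letters are not in these windows. The starts used lie 567 bases inside the deposited gene model for Batf3, 671 inside that for Fosl2 and 1210 outside that for Jund.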
